A study of Macaca fascicularis with 6 samples.

Results

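The genes described here are 44 genes of the cell division cycle, made up of 25 mitosis genes and 19 DNA replication genes, taken by name from an agreed list. Of these, 40 were listed in at least 1 of the 6 gene tables, among 14623 genes in all. The other 4 (NUSAP1, UBE2C, DUT and PRIM1) carried no row under those symbols in any table and have no values. Cells came from the corneal epithelium of cynomolgus monkeys (Macaca fascicularis, WT genotype), with 2 samples from uninjured corneas, 2 at day 1 and 2 at day 3 after corneal injury. All samples were handled in the same way on the 10x Genomics droplet platform and with HIT-scISOseq, a long-read method for whole transcripts of single cells. The labels do not give the kind of injury, nor whether 2 samples of 1 group are 2 animals, so p-values cover only the spread among these samples, and that spread may be technical.

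A dividing cell first copies its DNA and then separates the copies. Copying needs the MCM helicase, which opens the double helix, the clamp PCNA, which holds the polymerase on DNA, and enzymes such as RRM1, RRM2 and TYMS that make the building blocks. Separation is driven by the kinase CDK1 with its cyclins, by spindle motors and by a checkpoint that waits until every chromosome is attached. In the cornea, dividing cells lie mainly in the basal layer and at the limbus, and a wound is closed first by cells that migrate and later by cells that divide.

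The gene tables held 1068 to 1565 cell barcodes and 3733442 to 4928103 counts per sample, with a median of 2462 to 4447 counts per barcode that was highest at day 3. Corneal and basal epithelial markers were abundant in every sample: the 9 differentiated corneal markers summed to between 30054 and 35472 CPM (counts scaled to the size of the library), with the highest sums at day 1. The 11 basal and limbal markers summed to 14169 and 13596 CPM in uninjured samples and 8310.2 and 8358 on day 1. At day 3 they summed to 38782 and 37207 CPM. Their sum was thus lowest at day 1 and highest at day 3, but single markers differed. In cells with under 3 mitosis genes, KRT14 had 1530 and 1331 CPM in uninjured samples, and 17350 and 15942 at day 3. KRT5, ITGB4 and IGFBP5 were also higher there. KRT15 went from 4236 and 3959 to 470 and 468 CPM, and GPHA2, TP63, LAMB4, COL17A1 and ITGA6 were lower too. CXCL14 values overlapped. The part of these markers in the results was not tested. Among markers of other cell types, the leukocyte gene PTPRC had at most 10 counts in a library, and CD3E and CD2 were in no table. Other immune markers were less sparse: LYZ had 519 to 797 counts in each library and HLA-DRA 44 to 289. Immune markers summed to 167 and 216 CPM in uninjured samples, 317 and 276 on day 1, and 228 and 195 on day 3. The stromal genes COL1A1 and LUM were at their highest at day 3, with 248 and 179 counts of COL1A1. The part of immune or stromal cells in the results was not tested. At most 2 barcodes were shared by a pair of libraries.

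A gene table lists hardly any gene found in fewer than 5 cells of that sample, so a gene that is missing was at or under a minimum rather than at 0. Of the 40 listed members, 34 and 30 were present in the day 1 tables, against 39 and 40 in the uninjured tables; both day 3 tables held all 40. CENPA, AURKB, BUB1, BUB1B, MCM3 and CDT1 were missing from both day 1 tables, and MKI67, BIRC5, AURKA and KIF11 from that of day 1 replicate 2; UHRF1 was missing from uninjured replicate 1. The long-read isoform table of day 1 replicate 2 held 2 counts of AURKB, 2 of BUB1B, 1 of BUB1 and 1 of CENPA, none of which the gene table of that sample lists. Every log2 change printed below for these 11 genes was therefore computed with 4 counts in each table that did not list the gene. Counts of calls, DESeq2 values and alternative fits, such as those without 1 library, had 0 counts there unless stated otherwise. These genes passed the filter on low counts through the groups where they were higher. The edgeR counts of members called in each comparison are therefore followed by those over the 29 members listed in every table. Counts from DESeq2 and from alternative fits are not. For MKI67, BIRC5, AURKA and KIF11 at day 1, and UHRF1 in uninjured samples, 1 of the 2 values was set to 4 counts. P-values printed for them with 4 counts rest on 1 measured sample of that group.

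**Figure D1:**
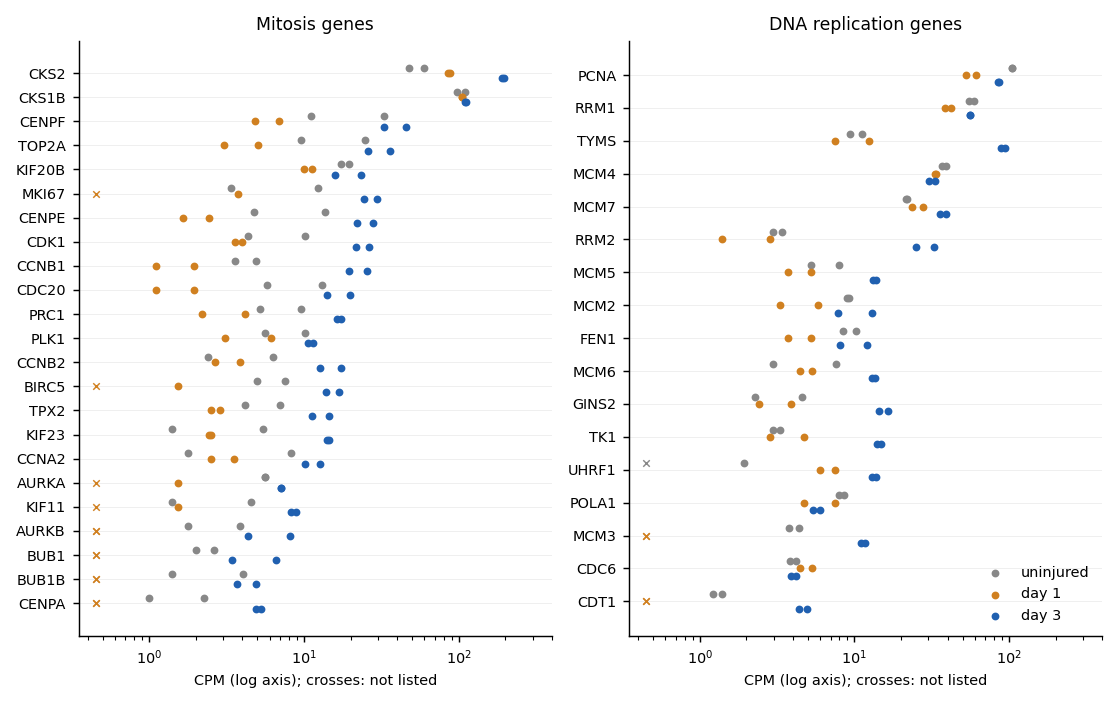
Level of each tested member in each sample, in CPM on a log axis, with mitosis genes on the left and DNA replication genes on the right; each point is 1 sample and a cross marks a table that does not list the gene. Day 3 points lie to the right for most mitosis genes and for TYMS, and the 6 points of CKS1B lie close together.

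Most mitosis genes fell at day 1 and rose at day 3. Against uninjured samples, 15 of the 23 tested mitosis genes were lower at day 1, 1 was higher and 7 did not pass the threshold (edgeR's quasi-likelihood test on counts summed per sample, Benjamini-Hochberg adjusted p under 0.05 over 12294 genes). Of all genes tested, 31.7% were called lower and 30.5% higher in that comparison. The median log2 change of the mitosis genes was -1.20 with missing genes at 4 counts, against -0.06 over all genes. At day 3 against uninjured, 15 of 23 were higher; none was lower with edgeR at an adjusted or unadjusted p under 0.05, nor with DESeq2 at an adjusted p under 0.05. This stands against 28.8% of all genes called higher and 26.4% lower; their median log2 change was 1.16. Over the 15 mitosis genes listed in every table, 8 were lower and 1 was higher at day 1, and 11 were higher at day 3. With missing genes at 4 counts, 14 of the 23 were lower at day 1 and 18 were higher at day 3, AURKB, BUB1 and CENPF being added there.

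At day 1 the share of replication genes called lower was near that of all genes. Against uninjured samples, 6 of 17 tested replication genes (35.3%) were lower at day 1, against 31.7% of all genes, 1 was higher and 10 did not pass, with a median log2 change of -0.38 with missing genes at 4 counts. At day 3 against uninjured, 10 (58.8%) were higher, against 28.8% of all genes, 1 was lower and 6 did not pass, with a median of 1.04. Over the 14 replication genes listed in every table, 4 were lower at day 1, and 7 were higher and 1 was lower at day 3. With missing genes at 4 counts, 5 of the 17 were lower at day 1, and 10 were higher and 1 was lower at day 3.

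Between the injured groups, 22 of 23 mitosis genes and 14 of 17 replication genes were higher at day 3 than at day 1, against 30.5% of all genes. These counts include genes missing from day 1 tables, which entered the fit without counts there. Over the members listed in every table, 14 of 15 mitosis genes and 11 of 14 replication genes were higher at day 3 than at day 1. No member was lower with edgeR at an adjusted or unadjusted p under 0.05, nor with DESeq2 at an adjusted one, against 28.8% of all genes called lower. CKS1B, MCM4, CDC6 and POLA1 passed in none of the 3 comparisons; with scaling by library totals alone, CKS1B, MCM4 and POLA1 were called lower than uninjured on both days. The day 1 and day 3 comparisons share their uninjured samples. DESeq2, with a Wald test, called fewer members: 10 mitosis genes lower at day 1 and 5 higher at day 3, and 3 replication genes lower at day 1 and 6 higher at day 3, each against uninjured. Its lost day 3 calls were those of MKI67, TOP2A, CCNA2, CDC20, BIRC5, CENPE, CENPA, TPX2, PRC1, KIF11, MCM3, MCM5, MCM6, CDT1 and PCNA. Its lost day 1 calls were those of MKI67, CCNB1, TPX2, PRC1, KIF20B, MCM2, RRM1 and FEN1.

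**Figure D2:**
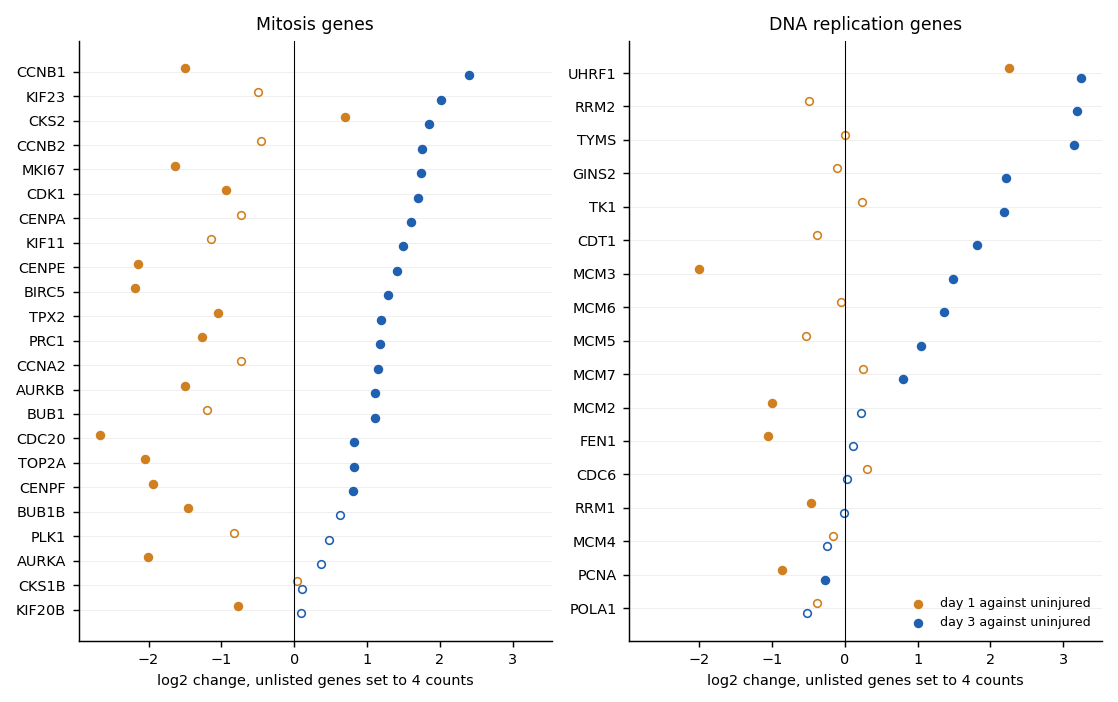
Log2 change of each tested member at day 1 and at day 3 against uninjured samples, from edgeR with 4 counts set where a table does not list a gene; filled points have an adjusted p under 0.05 in that fit and open points do not. Day 1 points lie mostly left of 0 for mitosis genes, while 5 day 1 points of replication genes are filled on the left and that of UHRF1 is filled on the right.

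The uninjured libraries differed from each other in the mitosis genes. All 23 were higher in replicate 2 than in replicate 1, with a median log2 difference of 1.18 and the widest gap, 2.19, for CCNA2. The replication genes showed no such shift, with 6 of 16 higher in replicate 2 and a median of -0.06, and neither did all genes, with 6150 of 11977 higher. Without uninjured replicate 1, 20 mitosis genes were lower at day 1 and 10 were higher at day 3; without uninjured replicate 2, 10 were lower at day 1 and 17 higher at day 3. The replicates at day 1 had a median mitosis difference of -0.01, and those at day 3 one of 0.33.

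Cyclins and kinases start mitosis. CDK1, the kinase that drives entry, had 4.38 and 10.1 CPM in uninjured samples, 3.97 and 3.61 on day 1, and 21.6 and 26.2 on day 3. Both day 3 libraries lay above both uninjured libraries, with a log2 change of 1.68 ± 0.26 (SE, edgeR adjusted p = 0.000206). The day 1 change of -0.96 ± 0.40 missed the threshold (edgeR adjusted p = 0.053). It was called in the fit with missing genes at 4 counts (edgeR adjusted p = 0.0493) and without doublets (0.0418). CCNB1, the cyclin that activates CDK1 at mitosis, had 3.59 and 4.88 CPM in uninjured samples, 1.1 and 1.94 on day 1, and 19.6 and 25.5 on day 3. Its 3 groups did not overlap: it was 1.52 log2 units lower at day 1 (log2 change -1.52 ± 0.44, edgeR adjusted p = 0.0098) and 2.39 ± 0.23 higher at day 3 (edgeR adjusted p = 5.14e-06), where it had the largest rise of the mitosis genes. CCNB2, its partner isoform, and CCNA2, the cyclin of S phase and early mitosis, rose at day 3 with log2 changes of 1.74 and 1.14 and did not pass at day 1. PLK1, a kinase of spindle assembly, passed in no comparison with uninjured samples and was higher at day 3 than at day 1, with a log2 change of 1.31 ± 0.35 (edgeR adjusted p = 0.00745). The Aurora kinase AURKA, which acts at the spindle poles, had 5.58 CPM in each uninjured sample and 7.14 and 7.11 at day 3, and 1.54 at day 1 replicate 1, the only day 1 table that lists it. It fell by 2.01 on the log2 scale at day 1 (edgeR adjusted p = 0.000188), and its day 3 change of 0.36 did not pass. The day 1 fall of CCNB1 was not called without day 1 replicate 1 (edgeR adjusted p = 0.0733) or uninjured replicate 2 (0.0646), while that of CDK1 was called without uninjured replicate 1 (0.00251). The day 3 rise of CCNA2 was not called without uninjured replicate 1 (0.169), day 3 replicate 1 (0.0678) or day 3 replicate 2 (0.184). That of PLK1 over day 1 was not called without day 1 replicate 1 (0.0508).

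Genes of mitotic chromosomes and kinetochores fell at day 1 and differed in whether they rose at day 3. MKI67, the coat protein of mitotic chromosomes that is used as a stain for dividing cells, had 3.39 and 12.4 CPM in uninjured samples, 3.75 in the 1 day 1 table that lists it, and 29.5 and 24.5 at day 3. Day 3 lay above every other library, while the day 1 value lay between the uninjured ones. Its log2 change was 1.74 at day 3 (edgeR adjusted p = 0.000778) and -1.63 at day 1 (edgeR adjusted p = 0.0269). TOP2A, the enzyme that untangles DNA, had 9.56 and 24.8 CPM in uninjured samples, 5.07 and 3.05 on day 1, and 25.8 and 35.8 on day 3. Its fall at day 1 was -2.07 ± 0.48 on the log2 scale (edgeR adjusted p = 0.00271), and its rise at day 3 was 0.81 ± 0.31 (edgeR adjusted p = 0.0435), with uninjured replicate 2 close to the lower day 3 sample. CENPF, a kinetochore protein, had 11.2 and 33.1 CPM in uninjured samples, 4.85 and 6.94 on day 1, and 32.7 and 45.6 on day 3, so that uninjured replicate 2 overlapped the day 3 samples and only the day 1 fall of -1.96 ± 0.49 passed (edgeR adjusted p = 0.00429). CENPE, a kinetochore motor, was separated in every pair of groups, with log2 changes of -2.16 at day 1 and 1.40 at day 3. The day 1 fall of MKI67 was not called without day 1 replicate 2 (edgeR adjusted p = 0.0798) or uninjured replicate 2 (0.511), nor the day 3 rise of TOP2A without day 3 replicate 2 (0.271) or uninjured replicate 1 (0.25). CENPF was called higher at day 3 with missing tables at 4 counts (0.0486), without uninjured replicate 2 (0.000285) and without either day 1 library (0.0178 and 0.0169).

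Genes of the spindle checkpoint and of cell separation differed in the comparisons they passed. CDC20, the activator of the complex that ends mitosis, had 5.78 and 13.1 CPM in uninjured samples, 1.1 and 1.94 on day 1, and 14 and 19.9 on day 3. Its day 1 log2 change of -2.68 ± 0.53 was the largest fall among mitosis genes listed in every table (edgeR adjusted p = 0.000966). BIRC5, part of the complex that corrects chromosome attachment, fell by 2.18 at day 1 and rose by 1.29 at day 3, both on the log2 scale. PRC1, a spindle midzone protein, and TPX2, which nucleates spindle microtubules, fell at day 1 with log2 changes of -1.28 and -1.06 and rose at day 3 with 1.16 and 1.18. KIF23, a motor of cell separation, rose at day 3 with a log2 change of 2.01 ± 0.36 (edgeR adjusted p = 0.000587) and did not pass at day 1. KIF20B, a motor of the same stage, changed at day 1 instead: it fell by 0.79 at day 1 on the log2 scale (edgeR adjusted p = 0.00571) and stood at 15.9 and 23.5 CPM at day 3, against 17.3 and 19.5 CPM in uninjured samples. The day 1 fall of PRC1 was not called without day 1 replicate 1 (edgeR adjusted p = 0.0846) or uninjured replicate 2 (0.143), nor that of TPX2 without day 1 replicate 2 (0.0635) or uninjured replicate 2 (0.232). AURKB, BUB1, BUB1B and CENPA were sparse, with 5 to 33 counts in each table that lists them. With 4 counts in the day 1 tables, AURKB and BUB1B stayed under the adjusted threshold at day 1 (edgeR adjusted p = 0.0346 and 0.0349), while BUB1 and CENPA did not (0.0571 and 0.262). Both day 1 values of each gene were set in this way, so these p-values measure no spread at day 1.

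The pair CKS1B and CKS2, small proteins that bind CDK1 and related kinases, behaved unlike the rest. CKS2 had 47.8 and 60 CPM in uninjured samples, 87.5 and 85.5 on day 1, and 190 and 197 on day 3. The 3 groups did not overlap, and it was the 1 mitosis gene that rose at day 1 (log2 change 0.68 ± 0.11, edgeR adjusted p = 0.000171), with a log2 change of 1.83 ± 0.10 at day 3 (edgeR adjusted p = 3.54e-08). CKS1B lay between 98.2 and 112 CPM in all 6 samples and passed in no comparison with TMM scaling. Together they made up most of the summed mitosis level at day 1, so sums are given without them too, an alternative chosen after seeing the data.

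Replication genes fell into sets with different courses. The nucleotide enzymes TYMS, which makes thymidylate, and RRM2, the regulated subunit of ribonucleotide reductase, did not pass at day 1 and rose at day 3. TYMS had 9.36 and 11.2 CPM in uninjured samples, 12.3 and 7.49 on day 1, and 93.3 and 88.3 on day 3. The day 3 samples lay far above the overlapping uninjured and day 1 samples, with a log2 change of 3.13 ± 0.15 against uninjured (edgeR adjusted p = 1.7e-08) and of -0.02 ± 0.23 at day 1. RRM2 had 3.39 and 2.97 CPM in uninjured samples, 2.86 and 1.39 on day 1, and 25.1 and 32.6 on day 3, a log2 change of 3.17 ± 0.24 at day 3 (edgeR adjusted p = 6.05e-07); both day 1 samples lay below both uninjured ones, with a change of -0.51 that did not pass. RRM1, the partner subunit that is known to be present through the cycle, had 58.8 and 54.8 CPM in uninjured samples, 42.3 and 38.3 on day 1, and 55.5 and 56.2 on day 3. It fell at day 1 by 0.49 on the log2 scale (edgeR adjusted p = 0.000957), with a day 3 change of -0.02. TK1, the thymidine salvage kinase, and GINS2, a subunit of the active helicase, rose at day 3 with log2 changes of 2.17 and 2.20.

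PCNA, the sliding clamp, was lowest at day 1 and stayed below its uninjured level at day 3. It had 104 and 104 CPM in uninjured samples, 52.2 and 61.3 on day 1, and 84.3 and 86.1 on day 3. The groups did not overlap: the log2 change was -0.88 ± 0.09 at day 1 (edgeR adjusted p = 5.46e-06) and -0.29 ± 0.08 at day 3 (edgeR adjusted p = 0.012), the 1 fall of a member at day 3. The day 3 fall was not called without uninjured replicate 1 (edgeR adjusted p = 0.0592), without uninjured replicate 2 (0.0649), without day 3 replicate 1 (0.0744) or with DESeq2 (0.288). FEN1, the nuclease that trims lagging strand fragments, fell at day 1 with a log2 change of -1.08 ± 0.29 (edgeR adjusted p = 0.00682), and at day 3 had 12 and 8.09 CPM, against 8.37 and 10.3 CPM in uninjured samples. Its day 1 fall was not called without day 1 replicate 1 (edgeR adjusted p = 0.0503) or uninjured replicate 2 (0.0553).

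The 6 MCM subunits, which work as a single ring, did not share 1 course. MCM4 lay between 30.4 and 39.1 CPM in every sample and passed in no comparison with TMM scaling. MCM3, MCM5, MCM6 and MCM7 rose at day 3, with log2 changes of 1.48, 1.04, 1.36 and 0.78; DESeq2 did not call MCM3 (adjusted p = 0.0834), MCM5 (0.145) or MCM6 (0.103). MCM2, with 12.9 and 7.85 CPM at day 3 against 9.17 and 8.9 CPM in uninjured samples, did not pass. At day 1 MCM2 fell, with a log2 change of -1.02 ± 0.32 (edgeR adjusted p = 0.0161). MCM3 was missing from both day 1 tables after 19 and 25 counts in the uninjured ones, a log2 change of -2.01 (edgeR adjusted p = 0.000629). Both day 1 values of MCM3, and of CDT1 below, were set to 4 counts, so their day 1 p-values measure no spread at day 1. CDT1, which loads the ring, had 7 and 7 counts in uninjured samples and 19 and 20 at day 3; its rise at day 3 passed (log2 change 1.82, edgeR adjusted p = 0.000261), and its day 1 change did not once missing tables were set to 4 counts (-0.38, edgeR adjusted p = 0.601). The day 1 fall of MCM2 was not called without day 1 replicate 1 (edgeR adjusted p = 0.133), uninjured replicate 1 (0.0571) or uninjured replicate 2 (0.0523). With missing tables at 0, the day 3 rise of CDT1 was not called when any 1 of the uninjured or day 3 libraries was left out (edgeR adjusted p of 0.0674 to 0.101). CDC6, the other loading factor, lay between 3.84 and 5.29 CPM throughout, and POLA1, the polymerase subunit that starts strands, between 4.72 and 8.55 CPM.

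UHRF1, which carries DNA methylation over to the new strand, was the 1 replication gene that rose on both days. It was missing from uninjured replicate 1 and had 1.92 CPM in uninjured replicate 2, 5.95 and 7.49 CPM at day 1, and 12.9 and 13.7 CPM at day 3. Its log2 changes were 2.25 at day 1 (edgeR adjusted p = 0.000148) and 3.24 at day 3 (edgeR adjusted p = 1.72e-06).

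The summed levels of the 2 groups of genes were compared on each day. The mitosis genes without CKS1B and CKS2 summed to 98.6 and 208 CPM in uninjured samples, 54.9 and 50.8 on day 1, and 303 and 373 on day 3. The replication genes summed to 294 and 284 CPM in uninjured samples, 206 and 216 on day 1, and 448 and 444 on day 3. The ratio of the replication sum to this mitosis sum was thus 2.98 and 1.36 in uninjured samples, 3.76 and 4.26 on day 1, and 1.48 and 1.19 on day 3. Day 1 lay above both other groups, while uninjured replicate 2 lay close to day 3. Genes missing from a table added nothing to these sums. The day 1 tables listed 19 and 15 mitosis genes, against 23 in the others, which can raise the day 1 ratio. Over the mitosis genes listed in every table, CKS1B and CKS2 included, the sums were 223 and 335 CPM in uninjured samples. They were 239 and 241 on day 1, and 527 and 600 on day 3. With CKS1B and CKS2 counted, the ratios were 1.20 and 0.752 in uninjured samples, 0.834 and 0.897 on day 1, and 0.744 and 0.650 on day 3, so that day 1 no longer stood above the uninjured samples. PCNA, RRM1, MCM4 and MCM7 stayed in the replication sum. At day 1 they had 52.2 and 61.3, 42.3 and 38.3, 33.1 and 33.9, and 23.6 and 27.7 CPM, in that order. Before thinning, cells with 5 or more mitosis genes held 6.94% and 5.26% of the day 1 replication counts. The ratio therefore compares summed transcripts and does not measure a balance of replication and mitosis. A ratio without those replication genes is not given. In summed libraries, fewer cells with these transcripts and less RNA per cell cannot be told apart. The cell values below bear on that.

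**Figure D3:**
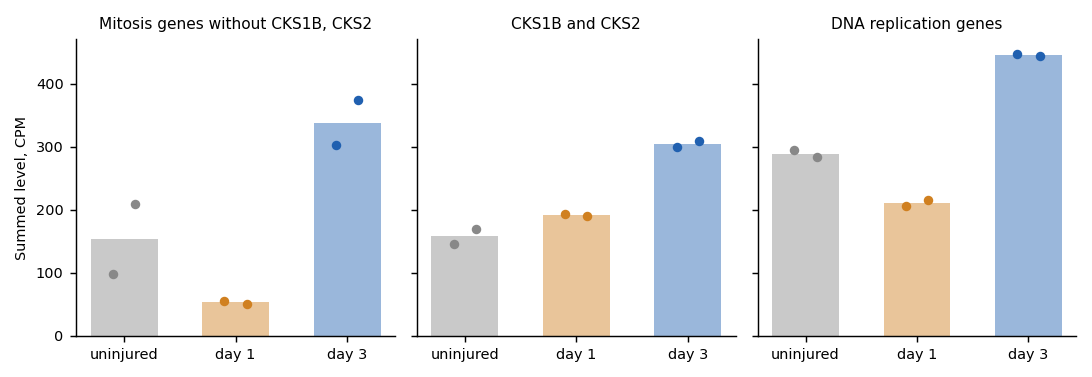
Summed level in CPM of the mitosis genes without CKS1B and CKS2, of CKS1B and CKS2, and of the replication genes, for each group; points are samples and bars are the means of 2 samples. Day 1 is lowest for the mitosis and replication sums, and the pair CKS1B and CKS2 is lowest in uninjured samples. A gene missing from a table adds nothing to its sum.

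Few cells held several mitosis transcripts. To compare depths, each cell was thinned at random to 1000 counts and cells with fewer were left out. Counts of 3 or more mitosis genes were then found in 10 of 1488 and 22 of 1348 cells in uninjured samples (0.672% and 1.63%), in 6 of 1401 and 4 of 1142 cells at day 1 (0.428% and 0.35%), and in 38 of 1084 and 49 of 1063 cells at day 3 (3.51% and 4.61%). The 3 groups did not overlap, though the exact binomial 95% intervals of uninjured replicate 1 (0.323% to 1.23%) and of the day 1 samples (0.157% to 0.93% and 0.0955% to 0.894%) did; intervals cover counting error only. A gene missing from a table counted as absent from all its cells. The uninjured and day 3 tables listed 23 mitosis genes each, but those of day 1 listed 19 and 15. Replication genes listed were 16 and 17 in uninjured samples, 15 and 15 on day 1, and 17 and 17 on day 3. This can lower the day 1 shares, and by how much was not tested. An exact permutation test of 2 samples against 2 cannot go below p = 0.333, and each of the 3 comparisons gave that value. The order of uninjured and day 1 samples depended on the number of genes, and the size of the difference on uninjured replicate 2. With 2 or more mitosis genes the shares were 1.81% and 3.41% in uninjured samples, and those of day 1, 2.14% and 1.93%, lay between them. Leaving out 1 library at a time gave a day 1 difference of -1.24 to -0.28 percentage points. For 3 or more replication genes the shares were 0.739% and 0.668% in uninjured samples, 0.286% and 0.0876% on day 1, and 2.95% and 2.45% on day 3. Without thinning, mitosis shares were 1.73% and 4.59% in uninjured samples, 1.69% and 1.18% on day 1, and 9.58% and 11.4% on day 3.

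Of the clusters with 3 or more differentiated corneal markers, 3 had more of them than of any other marker list and are called differentiated. In uninjured samples the cluster led by CYP26A1 and PCK1 held 0 of 456 and 0 of 425 such cells at a median depth of 3589.5 and 4590.0 counts, the day 1 cluster led by MUC22 and CYP26B1 1 of 572 and 0 of 482 at 3580.0 and 3381 counts, and the day 3 cluster led by DDX60, ADAP2 and LY6D 3 of 366 and 5 of 340 at 5105 and 4748 counts. The day 3 value of that cluster, 0.82% and 1.47%, lies within the range of the whole uninjured samples. The cluster led by SYNE1 also had 3 corneal markers but 6 basal and limbal ones, and at day 1 it held 3 of 189 and 2 of 168 thinned cells with 3 or more mitosis genes (1.59% and 1.19%).

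**Figure D4:**
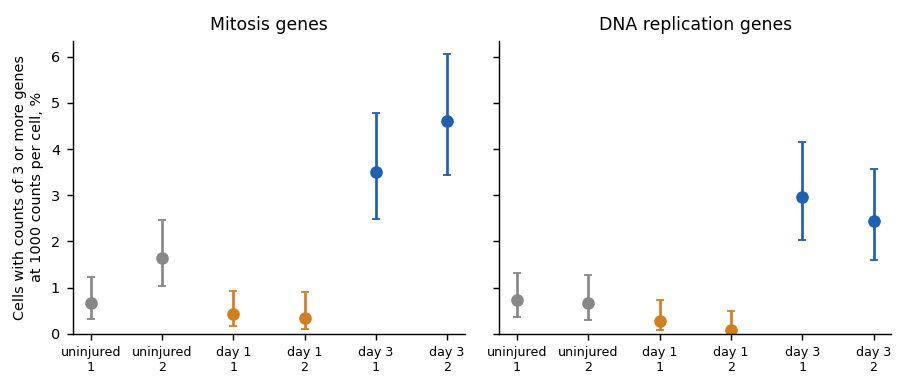
Percentage of cells with counts of 3 or more mitosis genes (left) or replication genes (right) after thinning to 1000 counts per cell, for each of the 6 samples; bars are exact binomial 95% intervals, which cover counting error only. The day 3 samples lie above all others in each panel, at 3.51% and 4.61% for mitosis genes. The day 1 tables listed fewer of these genes, and missing genes count as absent.

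Single genes differed in how many cells held them. TYMS was found in 0.806% and 0.816% of thinned cells in uninjured samples, 0.857% and 0.701% on day 1, and 8.21% and 6.49% on day 3, so the day 3 samples had more cells with TYMS than any other sample. CKS2 was found in 5.24% and 5.64% of cells in uninjured samples, 7.71% and 8.14% on day 1, and 13.7% and 14% on day 3, while CKS1B stayed between 8.23% and 10.8%. PCNA fell to 3.85% and 6.13% of cells at day 1 and stood at 7.38% and 7.62% at day 3, against 12.5% and 11.5% in uninjured samples. CKS2 and TYMS were also found in cells of the differentiated clusters: in the differentiated clusters, without thinning, CKS2 was in 40.8% and 39.2% of day 3 cells, against 10.9% and 13.8% of uninjured cells, and TYMS in 19.3% and 16.1% at day 3, against 3.62% and 3.61% of uninjured cells. MKI67 was rarer, in 0.403% and 0.593% of thinned cells in uninjured samples, 0.214% at day 1 replicate 1, and 2.21% and 1.41% at day 3. For TOP2A, the mean count in a cell that held it, before thinning, was 2.53 and 5.46 in uninjured samples, 2.3 and 1.57 on day 1, and 2.49 and 2.61 on day 3, so uninjured replicate 2 held the most per positive cell.

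Cells with many mitosis genes were few, and their share of the mitosis counts differed between samples. Cells with 5 or more mitosis genes, a limit used here without thinning, numbered 9 and 22 in uninjured samples, 9 and 6 on day 1, and 58 and 70 on day 3. At day 3 they were 5.29% and 6.55% of cells and held 79.8% and 81% of all mitosis counts other than CKS1B and CKS2. The uninjured cells held 46.3% and 73.3% of those counts and the day 1 cells 42.6% and 32.8%; the cells were chosen by these genes, so the shares are a description. In contrast, at day 3 they held only 26% and 27.4% of the CKS1B and CKS2 counts, and 34.7% and 36.2% of the replication counts, and at day 1 only 6.94% and 5.26% of the replication counts. Their median depth was 5207 and 5106 counts at day 3, against 4447 and 4145 counts for all day 3 cells, and 1 of the cells at day 1 was called a doublet. The day 1 tables listed fewer mitosis genes, which can lower the number of such cells at day 1.

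The cells with mitosis transcripts lay unevenly over clusters that were made without the cell cycle genes of the lists. Genes outside the lists that mark such cells, among them the kinetochore gene ZWINT, were not removed. The clusters may thus partly follow cell division itself. At day 3, the mitosis genes without CKS1B and CKS2 reached 897 and 981 CPM in the cluster led by the matrix genes FN1 and COL1A1, 501 and 537 CPM in the cluster led by VIM and CCDC80, 190 and 332 CPM in that led by ARG1 and RHCG, and 98.3 and 111 CPM in that led by DDX60 and ADAP2. The values of neighbouring clusters in that order did not overlap, though the lower ARG1 value lay closer to the DDX60 cluster than to the other ARG1 value. Replication genes followed the same order, with 816 and 838 CPM in the FN1 cluster and 221 and 231 CPM in the DDX60 cluster. After thinning, 9.91% and 13.6% of the FN1 cluster and 6.3% and 6.84% of the VIM cluster held 3 or more mitosis genes. The FN1 and VIM clusters carried 6 basal and limbal markers each, and 5 and 3 of the 8 stromal markers, so they stay unnamed.

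**Figure D5:**
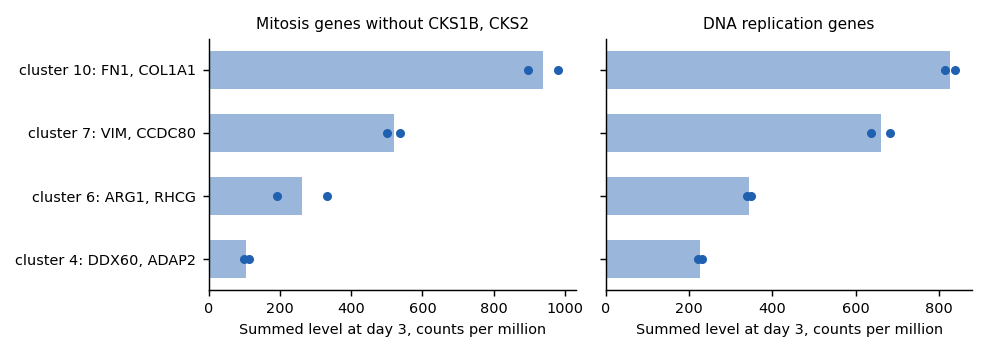
Summed level at day 3 of the mitosis genes without CKS1B and CKS2 (left) and of the replication genes (right), in CPM of each cluster's own counts, for the 4 clusters with at least 50 cells in each day 3 sample; points are the 2 samples and bars their mean. Clusters are named by leading genes, and the FN1 and COL1A1 cluster is highest in each panel.

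In uninjured samples, the same FN1 cluster held only 8 and 18 cells, and these were 7 of the 9 and 18 of the 22 cells with 5 or more mitosis genes. Their mitosis level was 6551 and 8422 CPM. Among the 10 leading genes of the cluster was an Ensembl identifier with no symbol that also led the cells with 3 or more mitosis genes. The clustering may have used genes of this kind, so the rank of this cluster at day 3 is a description. The large cluster led by GPHA2, PENK and KRT15, genes of the limbal basal layer, had 95 and 122 CPM in uninjured samples, and the cluster led by SYNE1 had 91.7 and 122 CPM. At day 1 the SYNE1 cluster had 132 and 145 CPM, and it held 4 of the 9 and 4 of the 6 cells with 5 or more mitosis genes, while 4 and 1 lay in the FN1 cluster; the MUC22 cluster had 23.9 and 21.7 CPM. At day 1 replicate 2, 1 of these cells lay in a cluster of 13 cells led by immune genes such as CD74 and TYROBP.

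Genes outside the list were higher in the cells with 3 or more mitosis genes. Of the named genes, the 7 with the most constant excess over the other cells of their sample were NCAPG, ANLN, STMN1, CDKN3, SGO1, DLGAP5 and ZWINT, which are chromosome condensation, cell separation, microtubule, phosphatase, cohesion, spindle and kinetochore genes; another 3 carried only Ensembl identifiers. NCAPG had 46 and 65.2 CPM in such cells of uninjured samples, 70.4 and 80.2 CPM in those on day 1, and 61.6 and 73 CPM in those on day 3, and no more than 1.25 CPM in the other cells of any sample. STMN1, which destabilises microtubules, had 598 and 658 CPM in such cells of uninjured samples, 326 and 428 CPM in those on day 1, and 358 and 278 CPM in those on day 3, against 22 to 56.3 CPM in the other cells. The differentiated corneal markers did not move together. KRT3, KRT12, KRT24 and KRT78 were lower in these cells than in the others in all 6 samples, and ALDH3A1 and TKT were higher in all 6. AQP5, CLU and LYPD2 were higher in some samples and lower in others. KRT78 was sparse outside day 3, with at most 6.73 CPM in the other cells of uninjured and day 1 samples. KRT3 stood at 1933 and 1939 CPM in uninjured samples against 4206 and 4604 CPM in the other cells. These cells were chosen by the mitosis genes, and no test is given.

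Wider lists of cell cycle genes gave mixed counts. Of 50 other mitosis genes tested, 28 were lower and 1 was higher at day 1, and 26 were higher and 1 was lower at day 3, each against uninjured; that is 56% lower at day 1 and 52% higher at day 3, against 31.7% and 28.8% of all genes. HMGB2, a chromatin protein of dividing cells, had 65.8 and 96.8 CPM in uninjured samples, 17.4 and 14.7 on day 1, and 79.4 and 77 on day 3. It fell by 2.33 at day 1 on the log2 scale (edgeR adjusted p = 1.07e-06) and was near its uninjured level at day 3. STMN1 fell likewise, with a log2 change of -1.06 at day 1. Among these, KPNA2, a nuclear import factor, rose at day 1 by 0.48 and KIF22 fell at day 3 by 0.61, on the log2 scale. Of 34 other replication genes tested, 17 were lower and 3 higher at day 1, and 12 were higher and 7 lower at day 3. At day 1, 50% were lower and 8.82% higher, against 31.7% and 30.5% of all genes. At day 3 the shares, 35.3% higher and 20.6% lower, lay near those of all genes, 28.8% and 26.4%. At day 1 the histone chaperone CHAF1A fell with a log2 change of -2.03 and the polymerase subunit POLD1 with -1.70, while DBF4, the activator of the replication kinase, rose with 1.66 and TIPIN, a fork protection factor, with 1.24. CLSPN and CDC45, which act at the replication fork, rose at day 3 with log2 changes of 2.17 and 1.73.

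Among genes that let cells enter the cycle, 2 of 16 tested were higher and 7 lower at day 1, and 4 were higher and 4 lower at day 3. The day 3 shares, 25% each way, lay near those of all genes, 28.8% higher and 26.4% lower; at day 1 they were 12.5% higher and 43.8% lower, against 30.5% and 31.7%. CCND1, the cyclin of the first growth phase, lay between 270 and 318 CPM in all samples and passed in no comparison. CCNE2, a cyclin of the start of S phase, had 11 and 12 CPM in uninjured samples, 2.2 and 2.77 on day 1, and 3.68 and 2.45 on day 3, with log2 changes of -2.22 at day 1 and -1.89 at day 3. CCNE1 was also lower, with -1.34 and -0.78. In contrast, E2F3, a transcription factor of replication genes, had 1.39 and 1.05 CPM in uninjured samples, 10.1 and 10.5 on day 1, and 4.84 and 6.62 on day 3, and CDK6, the partner of CCND1, rose by 2.19 at day 1 on the log2 scale. FOXM1, a regulator of mitosis genes, lay between 1.54 and 3.91 CPM and did not pass. MYBL2, a regulator of the same genes, was listed in uninjured replicate 2 with 1.22 CPM and at day 3 with 7.14 and 8.58 CPM, and in no other table; E2F1 was missing from both day 1 tables, and CCND2 and PCLAF were in none.

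Of 16 brake genes tested, 6 were higher and 8 lower at day 1, and 4 were higher and 8 lower at day 3. The shares called higher, 37.5% and 25%, lay near the 30.5% and 28.8% of all genes, and 50% were lower on each day, against 31.7% and 26.4%. CDKN1A, the p21 inhibitor, had 149 and 155 CPM in uninjured samples, 284 and 263 on day 1, and 231 and 236 on day 3. The groups did not overlap, with log2 changes of 0.85 ± 0.08 at day 1 and 0.62 ± 0.08 at day 3 (edgeR adjusted p = 2.18e-06 and 3.66e-05). CDKN2B, the p15 inhibitor, had 70.1 and 68.2 CPM in uninjured samples, 223 and 228 on day 1, and 265 and 238 on day 3. CDKN1B, the p27 inhibitor, fell at both times, with log2 changes of -1.39 and -0.62, and CDKN2C, the p18 inhibitor, had its larger fall at day 1, with -3.32.

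The isoform tables named transcripts in different ways, so they were read sample by sample. The uninjured tables and that of day 1 replicate 1 give each isoform a class: FSM stands for a full match to a known transcript, ISM for a partial one, NIC for a new combination of known splice sites and NNC for a transcript with an unknown splice site. In these 3 tables, 43.4%, 40.9% and 53.8% of the members' counts were FSM and 48.3%, 42.4% and 42% were NNC, in the order uninjured replicate 1, uninjured replicate 2, day 1 replicate 1. The remaining 3 tables held 1 fully matching transcript per member, so classes cannot be compared with day 3. PCNA was mostly NNC: 6.39% and 9.01% of its 391 and 455 counts in uninjured samples were FSM, and 13.3% of 195 counts at day 1 replicate 1, with exact binomial 95% intervals of 4.18% to 9.29%, 6.54% to 12% and 8.9% to 18.9%. CKS1B had 1.75% and 0.858% FSM in uninjured samples and 2.03% at day 1 replicate 1, whereas RRM1 was 100% FSM in all 3 and CKS2 89.3%, 90.6% and 95.7% in the same order. TOP2A had 73 isoform counts in uninjured replicate 2, none of them FSM, with an upper 95% limit of 4.93%.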

How the data were processed

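For each of the 6 samples the authors deposited whole-number count tables of genes and of isoforms by cell barcode, in raw counts. Cells were captured on the 10x Genomics controller and libraries built with HIT-scISOseq, per the labels' protocols; Cell Ranger is named without a version, per the submitters' processing notes. Aligner, genome build, annotation and strand setting were not given in the sources used here. A NextSeq kit is named beside the long-read method, and which reads gave the gene counts is not stated. Overlapping and near-identical genes could therefore share reads.

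All 7895 barcodes were used; Scrublet (scanpy 1.11.5) marked 66, 0.836%, as doublets, left out only as an alternative. Counts were summed per sample, since cells are not replicates, and fitted with the quasi-likelihood test of edgeR 4.0.16 under R 4.3.3, after filterByExpr and TMM scaling, with group as the only term and 12294 genes tested. A gene missing from a table counted as 0; the values printed for such genes use 4 counts, an alternative added after seeing the data. CPM is TMM-scaled, except within cells and clusters, and is not divided by transcript length, so levels of different genes are not compared. Standard errors come from the F statistic. The fit was tested on simulated data that left out the genes with the fewest counts and had no minimum for listing a gene. That test does not cover members missing from a table. DESeq2 1.42.0 was an alternative. Clusters are Leiden (leidenalg 0.10.2, resolution 0.5, 2000 variable genes, 30 components, 15 neighbours, scaled within sample). They were made without the genes of the cell cycle lists, while cell cycle genes outside those lists were not removed. A marker counted for a cluster at a log2 ratio over 0.5 with 5 CPM added, and a cluster with 3 or more such corneal markers, and more of them than of any other marker list, was a differentiated cluster.

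Of the members, 8 per group with the highest mean level were described, with the 3 called members of largest change per comparison and direction; of the other lists the 2 called genes of largest change and 12 fixed genes; some are left out, among them genes that rest on unlisted tables. Others were chosen after their values were seen. The members and lists were chosen with earlier results of these data known. No sequence, genome or position of the build used was analysed here.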

Additional observations from a re-analysis of the deposited data

How the results depend on the processing

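Scaling by library totals alone moved the median log2 change of all genes to -0.40 at day 1 and -0.46 at day 3 against uninjured, from -0.06 and -0.03 with TMM. It then called 19 mitosis genes lower at day 1 in place of 15 and 9 replication genes in place of 6, adding CDK1, PLK1, KIF11, CKS1B, MCM4, MCM5 and POLA1; at day 3 it called 1 mitosis gene lower, CKS1B, in place of 0, and 4 replication genes (PCNA, MCM4, RRM1 and POLA1) in place of 1. The day 3 rises of TOP2A, CCNA2, CDC20, CENPA and KIF11 were not called with totals (edgeR adjusted p = 0.264, 0.141, 0.259, 0.0548 and 0.0633, in that order). Other changes, and those of CKS1B, turned negative with totals: at day 1 CKS1B (-0.32), MCM7 (-0.10), TK1 (-0.11) and CDC6 (-0.047); at day 3 AURKA (-0.069), CKS1B (-0.33), KIF20B (-0.34), MCM2 (-0.21), CDC6 (-0.41) and FEN1 (-0.32); and at day 3 against day 1 CKS1B (-0.0085). Without doublets CDC6 at day 3 was -0.033. Without the filter on low counts, the day 3 rises of TOP2A, CCNA2 and CDC20 were not called (edgeR adjusted p = 0.068, 0.0583 and 0.0579). Nor was the day 1 fall of MKI67 (edgeR adjusted p = 0.0579). DESeq2's Wald test called 3 replication genes lower at day 1 in place of 6, 5 mitosis genes higher at day 3 in place of 15, 6 replication genes higher in place of 10 and 0 lower in place of 1, and 8 replication genes higher at day 3 against day 1 in place of 14; the cause was not tested. Over the tested members and comparisons, 1528 of the single-gene values under the alternatives kept their direction and their side of the threshold, 87 lost a call, 33 gained one and 32 changed sign. DESeq2's size factors in edgeR and leaving out barcodes under 500 counts changed no member's call.

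Leaving out 1 library at a time gave 0 to 1 replication genes lower at day 3. Sign changes were seen only in changes that did not pass with all 6 samples: at day 1 CCNB2 (-0.96 to 0.42), CCNA2 (-1.41 to 0.77), CKS1B (-0.056 to 0.098), KIF23 (-1.13 to 0.81), MCM6 (-0.62 to 0.72), TYMS (-0.46 to 0.26), GINS2 (-0.57 to 0.44) and TK1 (-0.14 to 0.57); at day 3 KIF20B (-0.22 to 0.35), MCM2 (-0.20 to 0.51), RRM1 (-0.0725 to 0.031), CDC6 (-0.049 to 0.076) and FEN1 (-0.21 to 0.35); at day 3 against day 1 MCM4 (-0.14 to 0.0047) and POLA1 (-0.39 to 0.27). A group left with 1 sample is assumed to vary like the others.

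The mean ratio of replication to mitosis genes was 0.977 in uninjured samples, 0.866 at day 1 and 0.697 at day 3, and 2.17, 4.01 and 1.33 in that order without CKS1B and CKS2. Genes missing from a table added nothing to these sums. The differences in shares of cells kept their direction at every depth and number of genes tried, with a difference of only -0.05 percentage points for replication genes at day 1 after thinning to 500 counts. Samples with the same number deviated together with correlations of 0.169, 0.139 and 0.00777 over the 3 pairs of groups, so the numbers do not pair the samples; with a replicate block, 15 mitosis genes were lower at day 1 and 15 higher at day 3, and 6 and 10 replication genes. Under the block MKI67 was not called at day 1 (0.0761) and PLK1 was (0.0494), CENPA was not called at day 3 (0.0518) and CENPF was (0.00931), and UHRF1 was not called at day 3 against day 1 (0.0542), each an edgeR adjusted p. Tables that leave out rare genes limit every statement on the sparse members at day 1.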
